A study of Rattus norvegicus with 9 samples.

Results

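Integrins are the cell surface receptors through which cells hold on to the extracellular matrix, and 10 genes of this family were chosen by name as receptors for fibronectin, collagen and laminin. Of these, 7 have a row in the count tables (Itga1, Itga5, Itga6, Itgb1, Itgb3, Itgb4 and Itgb5), among 17315 genes in all. Itga2, Itga3 and Itgav were not analysed here. RNA sequencing gave their levels in pXEN cells, stem cells of the rat's primitive extraembryonic endoderm, all of line RX1 (strain WKY). There were 3 libraries from each of 3 culture conditions.

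The T cultures grew on plates coated with fibronectin at 100 ng/ml, in DMEM/MCDB medium holding 2% FBS (a serum), dexamethasone (a glucocorticoid drug) at 0.5 µM, and Pdgf, Egf and Lif at 10 ng/ml each. Both other media were serum-free, contained no listed dexamethasone and were used on collagen I at 10 µg/ml, with a DMEM/F12 and Neurobasal base carrying N2 and B27 supplements. LPE held Lif, Pdgf and Egf at 10 ng/ml each. CPE held Pdgf and Egf at 10 ng/ml each and 1 µM Chir99021, an inhibitor of the kinase Gsk3, in place of Lif. Coating, serum, dexamethasone and base medium change together between T and the other media, so their parts cannot be told apart. All libraries came from 1 line, and the labels do not say that the libraries of a medium were separate cultures, so the p-values speak only of library-to-library spread, which may be technical.

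An integrin is a pair of an alpha and a beta chain. The beta chain encoded by Itgb1 joins many alpha chains: with that of Itga5 it binds fibronectin, with that of Itga1 collagen, and with that of Itga6 laminin. The Itga6 chain can also join the Itgb4 chain, which anchors epithelial cells to laminin at hemidesmosomes, while the chains of Itgb3 and Itgb5 join that of Itgav to bind vitronectin and fibronectin. Cells of the extraembryonic endoderm, the parietal endoderm above all, lay down a thick basement membrane of laminin and type IV collagen.

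Reads counted to genes numbered 1698764 to 2161228 for a T library and 3119049 to 4418465 for a serum-free one, so that 1 count was worth 0.226 to 0.589 CPM (gene counts scaled to a common library total). Reads in the tables' multimapping line made up 64.9% to 67.6% of all reads in T, 54.2% to 59.9% in LPE and 51.7% to 58.2% in CPE. Libraries of T were closer to one another than those of the serum-free media: over genes with at least 60 counts in a medium, the median variance between replicates was 1.58 times that of counting alone in T, 10.2 times in LPE and 8.1 times in CPE. All 8 primitive endoderm markers were present in every medium, their sum being 3290 to 3740 CPM for T, 3240 to 3550 for LPE and 2630 to 2850 for CPE. Of 8 fibroblast markers, 4 had counts in T (summed 1.39 to 33 CPM, mostly Col1a1), none of the 8 in LPE, and 2 in CPE (0 to 6.44 CPM), with Dcn, Lum and Col1a2 at 0 throughout. The endothelial and blood list summed to 151 to 154, 149 to 208 and 56.3 to 77.6 CPM, carried by Tek, Pecam1 and Cdh5, with the blood genes Ptprc and Itgam at 0. Trophoblast markers summed to 12 to 29 CPM in CPE, where Cdx2 and Elf5 appeared, against 0.93 to 2.73 CPM for T and 0 to 3.11 for LPE. The keratinocyte list stayed at or under 5.21 CPM, with Krt5 and Krt14 at 0. The part of these markers and of the multimapping share in the integrin results was not tested, and in such bulk samples fewer cells of a type and less RNA per cell cannot be told apart.

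Itga6 and Itgb1, whose products together form a laminin receptor, were higher in both serum-free media than in T, and Itgb5 was lower in both. Itga5, which encodes the alpha chain of the classical fibronectin receptor, was not called in any comparison. Itga1, Itgb3 and Itgb4 were at low levels. In edgeR's quasi-likelihood fit over all genes, a gene is called at a Benjamini-Hochberg adjusted p under 0.05. Of the 5 integrin genes with enough counts to be tested, 2 were called higher and 1 lower in LPE than in T, where 29.7% of the 9130 genes tested were called (15% higher and 14.7% lower). Against T, CPE gave 2 higher and 1 lower, beside 32.1% of all genes (16.8% higher and 15.3% lower). In CPE against LPE, 1 was called, lower, beside 17.8% of all genes (9.56% higher and 8.23% lower). The 2 comparisons with T share the T libraries.

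The promoters of Itgb1 and Itgb5 are shown because these genes moved in opposite directions. The table of RefSeq promoters used (build GRCr8) holds 4 of the 7 genes: Itga1, Itga5, Itgb1 and Itgb5. Each sequence below is the 250 bases before the RefSeq start, 5′ to 3′ on the gene's strand, and capitals mark the GC box (GGGCGG on either strand). Itgb1 lies at chr19:73602027-73602276 on the plus strand and Itgb5 at chr11:80449374-80449623 on the minus strand.
Itgb1: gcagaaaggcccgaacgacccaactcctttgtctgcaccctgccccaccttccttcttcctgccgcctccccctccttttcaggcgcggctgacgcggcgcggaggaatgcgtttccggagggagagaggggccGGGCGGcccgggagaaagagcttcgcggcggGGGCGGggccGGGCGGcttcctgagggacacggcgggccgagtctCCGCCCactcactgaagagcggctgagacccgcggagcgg
Itgb5: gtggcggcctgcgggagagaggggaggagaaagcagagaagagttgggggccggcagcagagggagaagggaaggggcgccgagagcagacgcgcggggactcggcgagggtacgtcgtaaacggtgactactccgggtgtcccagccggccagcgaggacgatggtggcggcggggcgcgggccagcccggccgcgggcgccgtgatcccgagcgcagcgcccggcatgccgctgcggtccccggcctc
The Itgb1 window holds 4 GC boxes and the Itgb5 window 0, although both are rich in G and C (71.2% and 74.4%, against a median of 51.2% over all 33469 promoters). A GC box is found in 30.5% of all promoter windows of this length. Neither window holds a TATA box (TATAAA, in 12.9% of all windows, both strands searched) or an AP-1 site (TGANTCA, in 6.34%). The Itga5 window has 1 GC box, and that of Itga1 has 0. These matches describe the letters only.

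Itgb1, the beta chain shared by most matrix-binding integrins, stood at 463, 444 and 518 CPM in the T libraries 1 to 3. It reached 886, 612 and 753 CPM in LPE and 737, 707 and 733 CPM in CPE. Every serum-free library lay above every T library, and the LPE libraries spread over a wider range than those of CPE. The log2 fold change was 0.66 (SE 0.12, edgeR adjusted p = 0.000827) in LPE and 0.61 (SE 0.12, adjusted p = 0.00132) in CPE, that is 1.58-fold and 1.53-fold. LPE and CPE overlapped, and their difference of -0.05 had a 95% interval from -0.31 to 0.21 (edgeR adjusted p = 0.835).

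Itga6 was the 1 gene of the 5 tested that was called in all 3 comparisons. Its levels were 96.0, 106 and 117 CPM in T, then 306, 297 and 321 CPM in LPE, and 165, 180 and 139 CPM in CPE. No library of one medium overlapped those of another, in the order T, CPE, LPE. LPE was 2.89-fold above T (log2 fold change 1.53, SE 0.14, edgeR adjusted p = 1.62e-06), CPE was 1.52-fold above T (0.60, SE 0.14, adjusted p = 0.00451), and LPE was 1.91-fold above CPE (adjusted p = 0.000228). Each of these calls held under all 18 other settings and omissions of a library. Groups that do not overlap were also found for 47.3%, 54.4% and 31.3% of all genes tested in LPE against T, CPE against T and CPE against LPE.

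**Figure D1:**
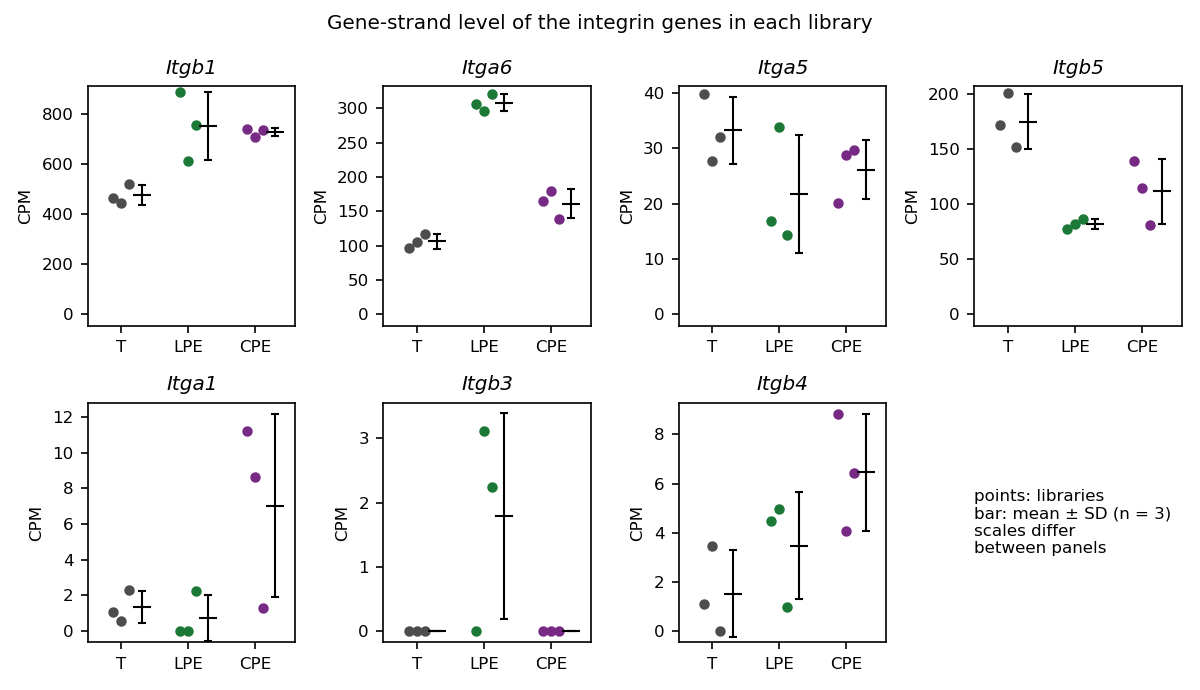
Level of each integrin gene in CPM (vertical axes, scales differ) in the 3 libraries of T, LPE and CPE; points are libraries and the bar beside them is the mean ± SD of 3. Itga6 lies between 297 and 321 CPM in LPE, above all CPE and T libraries, and Itgb5 lies between 152 and 201 CPM in T, above all others.

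Itgb5, a beta partner of the Itgav chain for vitronectin and fibronectin, went the other way. It stood at 171, 201 and 152 CPM in T, 77.4, 82.4 and 86.5 CPM in LPE, and 139, 114.5 and 80.85 CPM in CPE. All T libraries were above all others, while CPE ran from near the T libraries down to the level of LPE. LPE was 2.13-fold below T (log2 fold change -1.09, SE 0.20, edgeR adjusted p = 0.000665) and CPE 1.56-fold below T (-0.64, SE 0.20, adjusted p = 0.0189). Leaving out T replicate 1, T replicate 2 or CPE replicate 3 ended the CPE call (adjusted p = 0.0523, 0.107 and 0.0707). CPE and LPE were not called apart (0.44, adjusted p = 0.137), but were without CPE replicate 3 (log2 fold change 0.63, adjusted p = 0.032). The summed fibroblast markers also reached their highest value in T, but T (1.39 to 33 CPM) and CPE (0 to 6.44 CPM) overlapped. Their part in the Itgb5 level was not tested.

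Itga5, the fibronectin-binding partner of Itgb1, had 39.8, 27.8 and 32.1 CPM in T, 16.9, 33.9 and 14.4 CPM in LPE, and 20.05, 28.8 and 29.6 CPM in CPE. The groups overlapped in each comparison, and LPE replicate 2 stood at the level of T. The log2 fold change was -0.61 in LPE against T (95% interval -1.42 to 0.19, edgeR adjusted p = 0.253) and -0.34 in CPE against T (-1.14 to 0.45, adjusted p = 0.531). Without LPE replicate 2, LPE was called lower than T (-1.07, adjusted p = 0.0327).

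**Figure D2:**
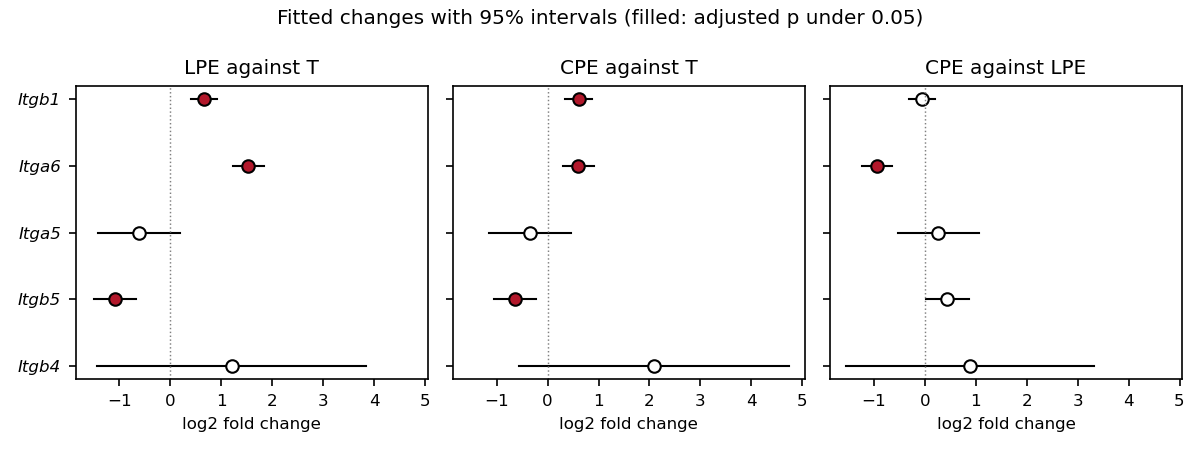
Log2 fold changes (horizontal axes) of the 5 integrin genes tested, with 95% intervals as lines, in the 3 comparisons; filled points have an adjusted p under 0.05. Itgb1 and Itga6 lie to the right of 0 and Itgb5 to the left in both comparisons with T, and the Itgb4 interval spans -1.43 to 3.84 in LPE against T.

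Because Itgb1 can pair with either alpha chain, the counts of Itga6 and Itga5 were also set against those of Itgb1 within each library. Such a ratio depends on transcript lengths, which were not used here. Its difference between media does not, provided each gene has the same transcripts in every medium, which was not tested. There were 0.208, 0.239 and 0.226 Itga6 counts per Itgb1 count in T, 0.346, 0.485 and 0.427 in LPE, and 0.224, 0.255 and 0.190 in CPE. All LPE libraries lay above the others, 1.86-fold above T, while CPE was 0.988 times T and overlapped it. For Itga5 the ratio was 0.0861, 0.0626 and 0.0619 in T, 0.0191, 0.0554 and 0.0192 in LPE, and 0.0272, 0.0408 and 0.0404 in CPE. All T libraries were highest, and the LPE and CPE ratios were 0.393 and 0.513 times that of T. An exact two-sided permutation test of 3 against 3 gave p = 0.1, the smallest it allows, for the 4 of 6 comparisons without overlap, and p = 0.9 (Itga6, CPE against T) and p = 0.4 (Itga5, CPE against LPE) for the others, so none can pass 0.05.

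**Figure D3:**
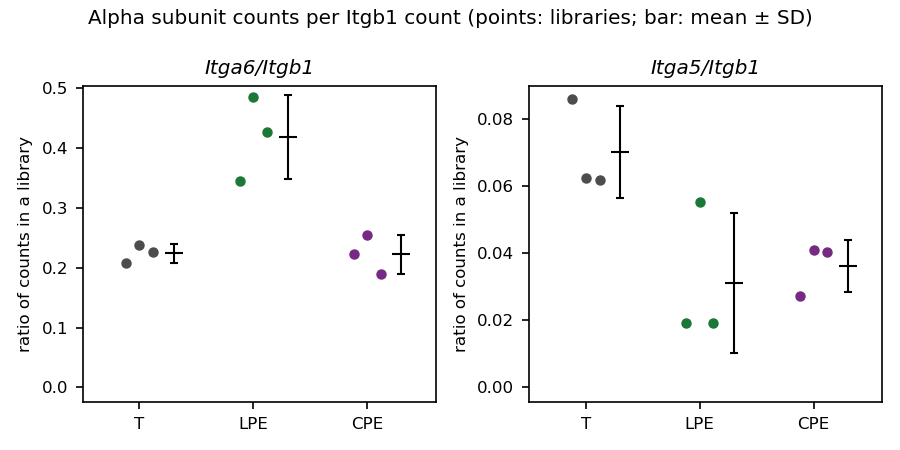
Counts of Itga6 (left) and Itga5 (right) per count of Itgb1 in each library (vertical axes, ratio without unit) by medium; points are libraries and bars the mean ± SD of 3. The Itga6 ratio is 0.346 to 0.485 in LPE against 0.190 to 0.255 in T and CPE, and the Itga5 ratio is highest in T.

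The collagen receptor gene Itga1 was near the limit of detection in T and LPE, although LPE cells grew on collagen. Its counts were 2, 1 and 5 in T, 0, 0 and 7 in LPE, and 38, 38 and 4 in CPE, where this came to 11.2, 8.63 and 1.29 CPM. In CPE 2 libraries were high, and the other lay within the range of T. It fell below the count filter and was not tested. Fitted without the filter, CPE was not called against T (edgeR adjusted p = 0.295) or LPE (0.185). When LPE replicate 3 was left out it passed the filter, through the 2 high CPE libraries and against LPE libraries that were both at 0, so the call made there (adjusted p = 0.0318) supports no difference. The trophoblast markers Cdx2 and Elf5 were also highest in CPE, at means of 10.3 and 9.19 CPM, while Tfap2c was lowest there, at 0.215 CPM. The part of these markers in the Itga1 level was not tested.

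Itgb3, the other beta partner of Itgav in the set, had 0, 10 and 7 counts in the LPE libraries and 0 in all T and CPE libraries. At 1.78 ± 1.60 CPM (SD, n = 3) in LPE it was below the filter. A floor of 3 counts per library was taken for the media at 0. The LPE mean was 1.12 times the floor of T and 2.11 times that of CPE. This floor covers counting error only, not the spread of the LPE libraries, of which replicate 1 was also at 0. Without the filter, LPE was not called apart from T or CPE (edgeR adjusted p = 0.184 and 0.152).

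Itgb4, the hemidesmosomal partner of Itga6, had few reads on its own strand: 2, 6 and 0 counts in T, 14, 16 and 3 in LPE, and 30, 18 and 20 in CPE. The highest values were in CPE, where 4.09 to 8.85 CPM lay above the 0 to 3.48 CPM of T, but the difference was not called (log2 fold change 2.09, SE 1.25, edgeR adjusted p = 0.225). The opposite strand held more reads than the gene's own in 8 of 9 libraries: 47, 30 and 62 in T, 52, 101 and 95 in LPE, and 22, 109 and 48 in CPE. These made up 94.6% of the reads of both strands in T, 88.3% in LPE and 72.5% in CPE. Of the 9130 genes tested, 68 (0.745%) had more opposite-strand than gene-strand reads. When reads of either strand were counted, the Itgb4 difference of CPE from T turned below 0 (log2 fold change -0.18, adjusted p = 0.761).

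**Figure D4:**
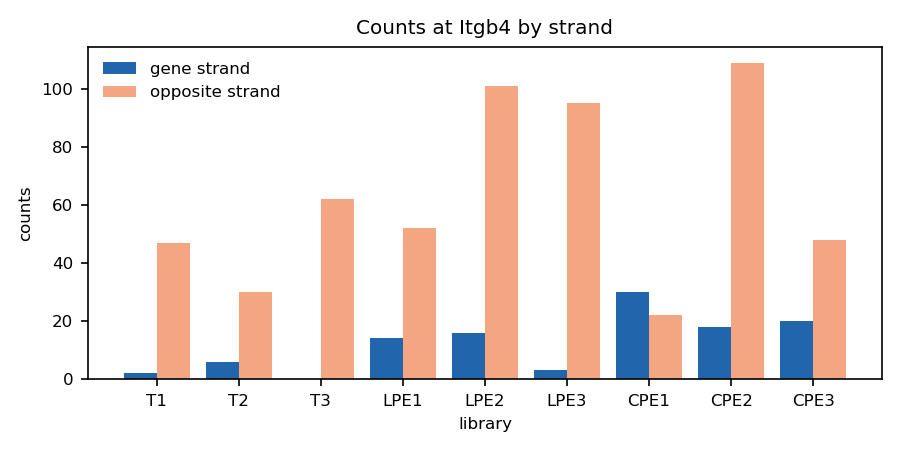
Counts at Itgb4 (vertical axis) on the gene's strand (blue) and on the opposite strand (orange) in each of the 9 libraries. Opposite-strand counts of 22 to 109 exceed gene-strand counts of 0 to 30 in every library but CPE replicate 1.

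Across the other integrin genes, a beta chain partner of Itgav and an alternative fibronectin receptor chain changed. Of 16 listed subunits 13 had rows, 3 were at 0 in all libraries and 5 could be tested. Itgb6, an epithelial partner of Itgav, stood at 9.28, 9.85 and 6.98 CPM in T, 56.6, 52.5 and 29.8 CPM in LPE, and 29.5, 19.3 and 23.5 CPM in CPE. As for Itga6, no library of one medium overlapped those of another, in the order T, CPE, LPE. LPE was 5.33-fold (edgeR adjusted p = 0.000218) and CPE 2.77-fold (adjusted p = 0.00769) above T, while CPE and LPE were not called apart (adjusted p = 0.0733). Itga4, an alpha chain that binds fibronectin and the adhesion molecule Vcam1, had 26.7, 30.7 and 45.6 CPM in T and 30.7, 33.3 and 67.6 CPM in LPE, but 0, 3.41 and 0 CPM in CPE. T and LPE overlapped, whereas CPE was 25.9-fold below T (adjusted p = 0.000248) and 33.0-fold below LPE (adjusted p = 0.000292), folds that rest on the 1 CPE library with reads. The summed endothelial and blood list was also lowest in CPE, as were its markers Tek and Pecam1. Its marker Cdh5 was lowest in T (mean 5.61 CPM, against 6.94 in CPE and 29.7 in LPE). The summed primitive endoderm markers were lowest in CPE too, though not each marker. The part of either list in the Itga4 level was not tested. Of the 5 tested, 1 was called in LPE against T (2 without LPE replicate 2 or CPE replicate 3), 3 in CPE against T and 1 in CPE against LPE (2 without LPE replicate 3 or CPE replicate 1). With so few genes, these shares of 20%, 60% and 20% stand beside 29.7%, 32.1% and 17.8% of all genes. Itgb7, which can pair with Itga4, was the third in CPE against T, at 21.5 ± 17.0 against 3.16 ± 0.939 CPM (SD, n = 3 each), which was no longer called on leaving out T replicate 1 or CPE replicate 1 (adjusted p = 0.06 and 0.0928).

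Inside the cell, integrin tails are bound by activators such as talin and kindlin and linked to actin. Of 15 tested genes of this kind 4 were higher and 1 lower in LPE than in T (3 called without T replicate 1, 2 or 3), and 5 were higher and 1 lower in CPE than in T. These shares of 33.3% and 40% lay near the 29.7% and 32.1% of all genes called. Itgb1bp1, which binds the Itgb1 tail and restrains activation, rose with Itgb1: 52.9, 45.2 and 49.8 CPM in T, 85.3, 92.3 and 97.1 CPM in LPE, and 111.5, 100.2 and 84.7 CPM in CPE. Both serum-free groups were above all T libraries (edgeR adjusted p = 0.0026 and 0.000962). Tln1, the talin gene, was 1.93-fold higher in LPE than in T (adjusted p = 0.0272), although the groups overlapped: T ran from 47.4 to 55.7 and LPE from 54.2 to 149 CPM. Leaving out T replicate 1, 2 or 3 or LPE replicate 2 ended that call (adjusted p = 0.0629, 0.0824, 0.0916 and 0.143). Fermt2, a kindlin gene, averaged 348 ± 13.1 CPM for T, 445 ± 89.9 for LPE and 299.6 ± 17.9 for CPE (SD, n = 3 each), and the 1.49-fold fall from LPE to CPE was called (adjusted p = 0.00726). LPE was not called above T (log2 fold change 0.35, adjusted p = 0.0601), but was in 4 of the 9 other settings (RLE factors, DESeq2, limma and thinned counts) and without LPE replicate 2 (adjusted p = 0.00795). The 2 genes of this list called between the serum-free media were both lower in CPE (1 called without T replicate 1, 2 or 3 or CPE replicate 2 or 3), or 13.3% beside 17.8% of all genes.

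Of 13 tested kinases and adaptors that signal from integrins 1 rose and 1 fell in LPE against T, 2 rose and 3 fell in CPE against T (2 or 3 called in all without T replicate 1, 2 or 3 or CPE replicate 1 or 3), and 3 rose and 2 fell in CPE against LPE. That is 15.4%, 38.5% and 38.5% of them, beside 29.7%, 32.1% and 17.8% of all genes tested. Git1, an adaptor of focal adhesions, was 2.37-fold lower in LPE than in T (102 ± 7.92 against 242 ± 20.3 CPM, SD, n = 3 each, edgeR adjusted p = 8.66e-06) and 1.57-fold lower in CPE (adjusted p = 0.00181). Nedd9, a scaffold downstream of focal adhesion kinase, was 2.96-fold higher in CPE than in T (107 ± 16.3 against 36.1 ± 6.52 CPM, adjusted p = 0.00036) and 2.29-fold higher than in LPE (adjusted p = 0.00421). Ptk2, which encodes focal adhesion kinase, averaged 337 ± 22.4 CPM for T, 335 ± 52.5 for LPE and 450.2 ± 62.7 for CPE (SD, n = 3 each). Its 1.34-fold rise in CPE over T (adjusted p = 0.0287) ended on leaving out T replicate 1 or 3 or CPE replicate 1 or 2 (adjusted p = 0.0906, 0.116, 0.0748 and 0.138). Its 1.35-fold rise over LPE (adjusted p = 0.0391) ended on leaving out T replicate 1 or 3, LPE replicate 1 or 2 or CPE replicate 1 or 2 (adjusted p from 0.057 to 0.162). That call was also lost in the fit of CPE and LPE alone and in limma with weights per medium.

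Other matrix receptors and integrin partners were called in 7 of 16 cases in LPE (4 higher, 3 lower) and in 7 in CPE against T (5 higher, 2 lower; 3 or 4 in all without T replicate 1, 2 or 3 or CPE replicate 1 or 3). Sdc4, a syndecan that acts beside integrins at fibronectin, had 22.9, 20.85 and 33.5 CPM in T, 299, 270 and 223 CPM in LPE, and 147, 150.1 and 91.2 CPM in CPE. The groups were fully apart, with LPE 10.2-fold and CPE 4.98-fold above T (edgeR adjusted p = 1.34e-07 and 2.89e-06) and LPE 2.04-fold above CPE (adjusted p = 0.00252). Cd81, a tetraspanin that associates with integrins, stood at 146.5 ± 8.52 CPM in T, from which it fell 1.88-fold in LPE (adjusted p = 0.00393) and 2.43-fold in CPE (adjusted p = 0.000258). In CPE against LPE 2 were higher and 3 lower. The called shares were 43.8%, 43.8% and 31.2%, beside 29.7%, 32.1% and 17.8% of all genes.

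Of 24 listed genes for integrin ligands 17 had rows, 3 were at 0 in all libraries and 11 could be tested. Of these 11, 7 were higher and 2 lower in LPE than in T, and 5 higher and 2 lower in CPE than in T. In CPE against LPE, 2 were higher and 6 lower. The called shares were 81.8%, 63.6% and 72.7%, beside 29.7%, 32.1% and 17.8% of all genes. The laminin chain genes Lama1 and Lamc1 and the collagen IV gene Col4a1, which build the basement membrane that the Itga6 and Itgb1 pair binds, had the order T, CPE, LPE, as Itga6 did, but other basement membrane genes did not. Col4a1 had 3371, 2885 and 3357 CPM in T, 8935, 10380 and 9436 CPM in LPE, and 5454, 5496 and 5098 CPM in CPE. No library of one medium overlapped those of another. LPE was 2.99-fold and CPE 1.67-fold above T (edgeR adjusted p = 3.52e-09 and 4.02e-06), and LPE was 1.79-fold above CPE (adjusted p = 2.63e-06). Lama1 was 3.50-fold and 1.66-fold above T, and Lamc1 3.64-fold and 2.45-fold (all adjusted p at or under 0.000408). The fall of Lamc1 from LPE to CPE (1.48-fold, adjusted p = 0.0183) ended on leaving out LPE replicate 2 or CPE replicate 1 or 3 (adjusted p = 0.0585, 0.0749 and 0.0892). Nid2, which encodes a nidogen that links laminin to collagen IV, was 7.38-fold higher in LPE than in T (277 ± 46.2 against 37.3 ± 7.78 CPM, SD, n = 3 each, adjusted p = 2.69e-07) but stood at 35.8 ± 9.04 CPM in CPE, where it was not called against T (adjusted p = 0.867). The laminin chain gene Lama5 was 2.89-fold higher in CPE than in T (77.6 ± 23.7 against 26.7 ± 4.05 CPM, SD, n = 3 each, adjusted p = 0.00106), and CPE overlapped LPE, which stood at 62.2 ± 17.3 CPM. Lamb3 and Lama4, also laminin chain genes, were lower in CPE than in T or LPE. Lamb3 had 8.19, 15.1 and 10.2 CPM in T but 0, 1.82 and 0 CPM in CPE (adjusted p = 0.00485). Lama4 had 6.002, 5.79 and 5.58 CPM in T and 0 in all CPE libraries (adjusted p = 0.00159). That was at least 6.86-fold lower on the floor of 3 counts per library, which covers counting error only. In LPE, Lamb3 stood at 22.9 ± 11.3 CPM and Lama4 at 13.3 ± 9.12 CPM (SD, n = 3 each). Both were called lower in CPE than in LPE (edgeR adjusted p = 0.002 and 0.00105). Neither was called in LPE against T (adjusted p = 0.36 and 0.348). Fn1, the fibronectin gene, had 35.5, 24.3 and 24.6 CPM in T, 0 in all LPE libraries, and 16.2, 12.04 and 26.7 CPM in CPE. T and CPE overlapped and were not called apart (adjusted p = 0.389), while Fn1 was at least 29.6-fold lower in LPE than in T and at least 19.3-fold higher in CPE than in LPE, taking 3 counts per library as the floor, which covers counting error only. The collagen I gene Col1a1 had 12.6, 21.4 and 0.465 CPM in T and 0 elsewhere, and was not tested.

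**Figure D5:**
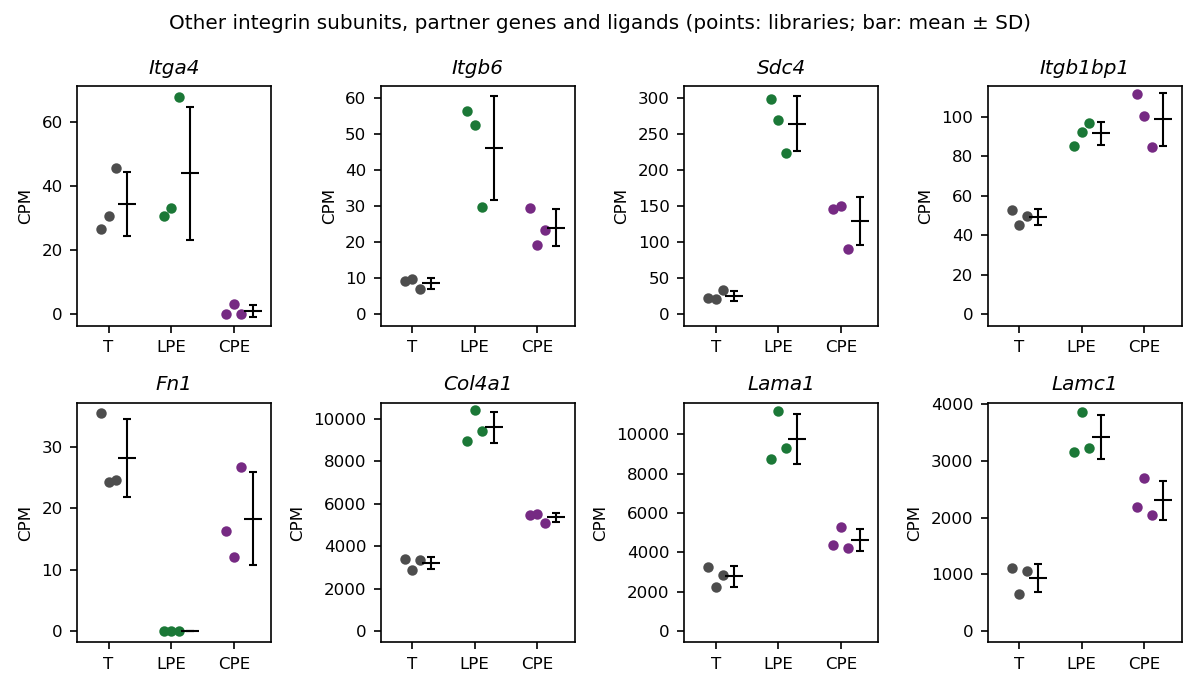
Level in CPM (vertical axes, scales differ) of 2 further integrin genes, the partner genes Sdc4 and Itgb1bp1 and 4 ligand genes in each library by medium; points are libraries and bars the mean ± SD of 3. Itga4 is at 0 to 3.41 CPM in CPE, Fn1 is at 0 in LPE, and Col4a1 has the order T, CPE, LPE.

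Medians were taken over the tested genes of each list, and do not show genes that moved in opposite directions. In LPE against T the 5 integrin genes ran from -1.09 (Itgb5) to 1.53 (Itga6). The median log2 fold change of the tested ligand genes was 1.22 in LPE and 0.73 in CPE against T, that of the 5 integrin genes 0.66 and 0.60, and that of all genes -0.03 and -0.01. For the other subunits it was 0.73 and 0.05, for activators and linkers 0.13 and 0.29, for kinases and adaptors 0.32 and 0.35, and for other receptors and partners 0.34 and 0.39. Placing the genes at 0 in a whole medium, such as Fn1, at their bound left each of these list medians as given.

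To find genes with patterns like those of the integrins, log2 CPM was centred on each gene's mean and the root-mean-square difference from each integrin was taken over the 9 libraries. Of all genes tested, Col4a1 was the nearest to Itga6, at 0.145 log2 units, followed by the splicing factor gene Sf3b3 (0.165) and Cnksr3 (0.188), where the median gene was at 0.854. Nearest to Itgb1 were Eral1 (0.104), the glycyl-tRNA synthetase gene Gars (0.106) and Agpat6 (0.111), with the median gene at 0.63. Nearest to Itgb5 were Bet1 (0.131), Tax1bp3 (0.168) and Ppp1r11 (0.179), with the median at 0.733. Nearest to Itga5 was Dync1li1 (0.149, median gene 0.695) and to Itgb4 Pam (0.427, median gene 1.291). The libraries share their depth and media, so these distances are descriptions of likeness only.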

How the data were processed

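RNA was depleted of ribosomal RNA and made into libraries with a directional kit, per the labels' protocols. The submitters' processing notes name CASAVA 1.8.2, Trimmomatic 0.33, STAR 2.5.1, DESeq2 and build rn6; no source used here gives the annotation. The deposited tables hold raw counts per gene by strand, made by the authors. Column 4, the gene strand, was used, as the other strand held 0.822% to 0.986% of gene reads. The 4 summary lines stayed out of library sizes; 1 of them holds multimapping reads (51.7% to 67.6% of all reads), which enter no gene row, so close gene copies may be under-counted.

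Counts were tested with edgeR 4.0.16 (R 4.3.3) with its quasi-likelihood test, fitting the 9 libraries together under TMM factors after filterByExpr (10 counts in enough libraries, 15 in total), which kept 9130 genes. P-values were adjusted over these genes. SEs and intervals follow from the F statistic. CPM use the TMM factors, and log2 CPM a prior count of 2. Alternatives used RLE and upper-quartile factors, DESeq2 1.42.0, limma 3.58.1, no filter, single pairs of media, a replicate block, either-strand counts, thinned counts and omission of each library.

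Members and lists were chosen with earlier results of these data known. All 7 integrins with a row are described. The rule for list genes takes up to 3 called rises and 3 falls per list and comparison with at least 5 CPM, plus 8 fixed genes; of the called genes it names, those lost on omitting 1 library (5 of 19, 8 of 23 and 3 of 20 in LPE against T, CPE against T and CPE against LPE) were mostly counted only, and not all the others are described. Ratios planned with Itgav or Itga3 were not analysed here, and those of Itga1 to Itgb1 and Itga6 to Itgb4 fell under 10 counts.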

Additional observations from a re-analysis of the deposited data

Results flagged for a closer look

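The strand opposite to Itgb4 held 566 counts over the 9 libraries, with at least 22 in each, against 109 on the gene's own strand. These reads enter only the fit of either-strand counts, and lie above the limit of 3 counts that a count of 0 allows. Scaled to library size they came to 24.0 ± 5.91 CPM for T, 26.2 ± 8.27 for LPE and 15.6 ± 9.14 for CPE (SD, n = 3 each).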

How the results depend on the processing

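The count of integrin genes called stayed at 3, 3 and 1 (LPE against T, CPE against T and CPE against LPE) under 8 of the 9 alternatives; limma with weights per medium called 4 in CPE against T, adding Itgb4 (adjusted p = 0.0266). Leaving out 1 library gave 3 to 4, 2 to 3 and 1 to 2. Same-numbered replicates were not alike (correlations of deviations from medium means -0.027 to 0.012, against -0.047 to 0.035 for other numbers, so the numbers are not a pairing). With the replicate block, 2558, 2751 and 1500 genes were called in place of 2716, 2928 and 1624, and the counts of integrin genes were 3, 3 and 1. The fit of each pair of media alone called 2695, 3664 and 1103 genes, and limma with weights per medium 2952, 3907 and 1118. The 17.8% of all genes called in CPE against LPE thus depends on the fit used.

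Reversals were few. With either-strand counts, Itgb4 turned to -0.18 in CPE against T and -0.40 (log2) in CPE against LPE, where opposite-strand reads outnumber its own. Itgb1 in CPE against LPE, not called, ran from -0.18 to 0.09 on leaving out 1 library. Ptk2 in LPE against T, not called, was 0.006 with RLE factors and with DESeq2, 0.022 in the fit of those media alone, and -0.119 to 0.115 on leaving out 1 library. Itgb4 has no value with thinned counts, nor for LPE against T in the fit of those media alone, where it fell under the count filter. At the depth used, genes such as Itga1, Itgb3 and Itgb4, with under 12 CPM in every library, cannot show moderate changes.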
